A study of Homo sapiens with 16 samples.

Results

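Clustered histone genes are the protein-coding genes whose symbols begin with HIST1H, HIST2H, HIST3H or HIST4H, and 71 of the 58735 genes in the deposited count table met that rule on name and biotype. They code for the linker histone H1 (6 genes), for the core histones H2A (17 genes) and H2B (18 genes), and for the core histones H3 (15 genes) and H4 (15 genes). The HIST1 cluster on chromosome 6 holds 55 of them. The HIST2 cluster (12 genes) and the HIST3 cluster (3 genes) lie on chromosome 1, and HIST4H4 lies alone on chromosome 12. Another 19 rows with such names are pseudogenes and were not counted as members.

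MDA-MB-231 and SUM159 (titled SUM159PT) are human triple-negative breast cancer lines. Each was exposed for 48 h to 8 uM YES1i, the YES1 kinase inhibitor CH6953755, or to the solvent DMSO, with 4 libraries in each of the 4 groups. The series text calls the 4 libraries of a group technical replicates, so every p-value here measures only the spread between such libraries. MDA-MB-231 grew in RPMI and SUM159 in Ham's F12, so that line and medium cannot be told apart.

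Histone proteins package DNA: H2A, H2B, H3 and H4 form the core around which DNA winds, and H1 binds the linker DNA between cores. Most clustered histone genes are replication-dependent, which means that their mRNAs are made in S phase, when new DNA needs new histones. Those mRNAs end in a conserved stem-loop bound by SLBP instead of in a poly(A) tail. Some clustered genes also give longer transcripts that run past the stem-loop and carry a poly(A) tail, and such forms are known from cells that leave the cell cycle or differentiate. Because the libraries were made from RNA selected on poly-T beads, the values below concern the transcripts that selection recovered and not the whole pool of histone mRNA. In bulk RNA, fewer cells that make a transcript and less of it per cell cannot be told apart.

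The stem-loop is shown for the members whose values are described most fully, since it marks where a replication-dependent mRNA would end and how much annotated sequence lies beyond it. The bases were read from the GENCODE 29 transcripts, the stem-loop is in capitals, and lower-case letters are its neighbouring bases.
HIST1H2AC: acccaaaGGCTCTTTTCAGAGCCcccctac
HIST1H2AG: aaccaacGGCTCTTTTCAGGGCCacccacg
HIST3H2A: acataaaGGCTCTTTTCAGAGCCacctact
HIST1H2BD: tcccaaaGGCTCTTTTAAGAGCCacgcatg
HIST1H2BC: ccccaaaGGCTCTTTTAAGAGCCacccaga
HIST1H2BH: acccaaaGGCTCTTTTCAGAGCCacttaat
HIST1H3H: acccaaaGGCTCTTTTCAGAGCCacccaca
HIST1H3E: atccaaaGGCTCTTCTCAGAGCCaaccact
HIST1H4H: aaccaaaGGCCCTTTTCAGGGCCgcccact
HIST1H4I: ctaaaaaGGCCCTTTTTAGGGCCcctaagc

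The histone stem-loop pattern, searched on the sense strand only, was present in an annotated transcript of 32 of the 71 members. It was found in 0.208% of the 19684 genes with protein-coding transcripts, and 32 of the 41 genes that hold it are members. The form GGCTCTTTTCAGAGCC occurred in 17 members, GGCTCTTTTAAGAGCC in 5, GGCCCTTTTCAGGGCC in 5 and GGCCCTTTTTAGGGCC in 3. Every H4 stem-loop found was of the last 2 forms, and no stem-loop of an H1, H2A, H2B or H3 gene was. HIST1H3E and HIST1H2AG each had a form of their own, as printed above.

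The annotation decides how much of a histone transcript a gene-level count could see. For 35 members the gene model ends at the stop codon, so it holds no stem-loop and reads beyond the stop codon fall outside it. HIST1H3J, which was not tested, has exons beyond the coding sequence, and they lie before its start codon. HIST1H2BA, also not tested, has a model of 516 bases, against 381 in HIST1H2BK, so its model also holds bases before the coding sequence. A further 11 members have a short tail of at most 150 bases after the stop codon, 8 of them with the stem-loop, and 25 members have a longer tail, 24 of them with it. HIST1H2BJ is the long-tail member in which no stem-loop was found. From the stem-loop to the transcript's end lie 1114 bases in HIST1H2AC, 1862 in HIST1H3E, 1761 in HIST1H2AG, 769 in HIST1H3H, 390 in HIST3H2A and 39 in a transcript of HIST1H2BD. The poly(A) signal AATAAA stands in the last 50 bases of at least 1 transcript in 19 members. It stands there in 35.5% of all 83064 protein-coding transcripts, a share of transcripts and not of genes. The 35 models that end at the stop codon cannot show a signal after it, so the values are not alike.

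Start regions are shown for 3 members that moved in different ways: HIST1H2AC, which rose with YES1i in both lines, and HIST2H2AC and HIST1H1E, which fell in both. They are RefSeq promoters of build GRCh38.p14, from 250 bases before to 50 bases after the start, read on the plus strand. Capitals mark, on either strand, the TATA box letters TATAAA, the box CCAAT and the octamer ATTTGCAT.
HIST1H2AC, chr6:26123922-26124221: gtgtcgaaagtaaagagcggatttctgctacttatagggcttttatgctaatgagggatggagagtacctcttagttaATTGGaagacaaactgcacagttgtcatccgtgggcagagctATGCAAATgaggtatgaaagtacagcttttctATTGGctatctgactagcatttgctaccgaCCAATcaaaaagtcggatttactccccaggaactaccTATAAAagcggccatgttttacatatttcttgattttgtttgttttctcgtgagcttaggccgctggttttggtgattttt
HIST2H2AC, chr1:149886668-149886967: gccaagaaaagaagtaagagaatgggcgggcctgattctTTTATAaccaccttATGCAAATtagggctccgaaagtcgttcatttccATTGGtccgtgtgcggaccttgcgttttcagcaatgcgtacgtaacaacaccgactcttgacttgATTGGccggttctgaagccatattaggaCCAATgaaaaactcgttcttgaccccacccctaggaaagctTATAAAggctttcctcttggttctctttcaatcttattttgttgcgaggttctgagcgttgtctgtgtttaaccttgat
HIST1H1E, chr6:26156079-26156378: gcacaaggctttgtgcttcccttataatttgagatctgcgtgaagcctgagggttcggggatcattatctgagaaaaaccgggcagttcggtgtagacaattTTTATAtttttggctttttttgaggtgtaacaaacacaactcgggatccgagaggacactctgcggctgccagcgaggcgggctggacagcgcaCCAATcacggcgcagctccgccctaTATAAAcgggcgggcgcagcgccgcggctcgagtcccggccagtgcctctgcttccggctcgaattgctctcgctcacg

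A RefSeq start region was matched to 61 of the 71 members. The octamer was present in 11 of 16 H2A regions and 9 of 13 H2B regions, against 1.77% of all 35116 regions, and in no H1, H3 or H4 region. CCAAT was present in 83.6% of the members' regions and 34.6% of all regions, and H4 stood apart with 3 of 13. TATAAA was present in 67.2% of the members' regions and 11.5% of all regions. HIST1H2AC and HIST2H2AC, which moved in opposite directions with YES1i, each hold all 3 motifs. A match here is a description of letters and not of a factor bound there.

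The histone transcripts were rare in these libraries. Total counts ran from 15876171 to 36261542 per library, and the 71 members took 0.0143% ± 0.000311 of them in MDA-MB-231 with YES1i and 0.0151% ± 0.000599 with DMSO (SD, n = 4 each). In SUM159 their share was 0.00680% ± 0.000245 with YES1i and 0.00660% ± 0.000264 with DMSO (SD, n = 4 each). Between 33 and 51 members had at least 1 count in a library. Across the 16 libraries 61 members had at least 1 count and 10 had none, and a count of 0 allows up to 0.0827 to 0.189 CPM (read counts scaled to library size) depending on the library, for counting error only. The low-count filter left 26 members in the tests (2 H1, 6 H2A, 11 H2B, 4 H3 and 3 H4). The other 45 had at most 102 counts over all libraries, and HIST1H4K had the most. Members with near-identical copies, such as HIST2H2AA3 and HIST2H2AA4, HIST2H3A and HIST2H3C, or HIST2H4A and HIST2H4B, are uncertain, since how reads matching several copies were counted is not given in the sources used here. None of these 6 was tested. Exons of 11 members overlap another gene with at least 10% of their count, and HIST1H2BE is the tested one among them. Of these 11, 5 had no count in any library, against 5 of the other 60. How reads in overlapping exons were counted is not given, so a count of 0 in these 11 need not mean a level under the bound above.

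The labels were checked on marker genes. ESR1 and PGR, which encode the oestrogen and progesterone receptors, had 110 and 8 counts over all 16 libraries, while ERBB2 averaged 107 to 118 CPM in the 4 groups. Vimentin (VIM) averaged 749 CPM in MDA-MB-231 with YES1i and 826 CPM with DMSO, and 2442 CPM in SUM159 with YES1i and 1953 CPM with DMSO. EPCAM averaged 12.0 and 11.8 CPM in MDA-MB-231 with YES1i and with DMSO, and 0.118 and 0.0161 CPM in SUM159 with YES1i and with DMSO. CDH1 had 0 counts in SUM159. Of the 5 tested among these 6 line markers, 1 fell in MDA-MB-231 (VIM) and 2 rose in SUM159 (VIM and EPCAM). Of 10 markers of leukocytes, endothelium and fibroblasts, 6 were tested. Their summed level was 33.5 to 38.8 CPM with YES1i and 36.0 to 43.6 CPM with DMSO in MDA-MB-231, and 62.1 to 70.9 CPM with YES1i and 49.3 to 55.1 CPM with DMSO in SUM159. CD3E and CDH5 had 3 counts each in all. PECAM1, an endothelial adhesion molecule, averaged 8.66 CPM with YES1i and 3.20 CPM with DMSO in MDA-MB-231 and rose there. PDGFRB, a growth factor receptor of fibroblasts, averaged 13.2 CPM with YES1i and 25.5 CPM with DMSO in MDA-MB-231, where it fell, and 47.4 CPM with YES1i and 32.3 CPM with DMSO in SUM159, where it rose. PDGFRA, the related receptor, averaged 14.5 CPM with YES1i and 17.0 CPM with DMSO in SUM159 and did not pass the test (edgeR, adjusted p = 0.117). With adjusted p under 0.05 (edgeR), 3 of the 6 rose and 1 fell in MDA-MB-231, and 3 rose in SUM159. Over all genes tested, 26.8% were called higher and 22% lower in MDA-MB-231, and 25.1% higher and 26.5% lower in SUM159. The part of these marker genes in the histone values was not tested.

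A few members carried most of the histone signal. HIST1H2BK, HIST1H2AC and HIST1H1C held 67.7% of the summed CPM of all 71 members in MDA-MB-231 with YES1i, and the same 3 held 64.4% with DMSO. In SUM159 the leading 3 held 52.1% with YES1i, led by HIST3H2A, and 39.1% with DMSO, led by HIST1H1C. Per kilobase of gene model, HIST1H2BK led in MDA-MB-231 at 85.0 CPM per kb with YES1i and 111 CPM per kb with DMSO. HIST1H1C followed there at 49.2 and 52.1 CPM per kb with YES1i and with DMSO. In SUM159 HIST3H2A stood at 19.6 CPM per kb with YES1i and 10.4 CPM per kb with DMSO, and HIST1H2BK at 19.1 and 17.9 CPM per kb with YES1i and with DMSO. Both of the leading members in MDA-MB-231 have gene models that stop at the stop codon, so their level per kb rests on the coding sequence alone. The replacement histone genes H3F3A and H3F3B, which encode H3.3 and have ordinary polyadenylated mRNAs, give a scale for these levels. In MDA-MB-231 they stood at 44.9 and 46.2 CPM per kb with YES1i and at 50.7 and 66.4 CPM per kb with DMSO, all below HIST1H2BK. In SUM159 they stood at 47.4 and 55.3 CPM per kb with YES1i and at 60.1 and 78.3 CPM per kb with DMSO, all above HIST1H2BK. These levels divide HIST1H2BK by 381 bases of coding sequence and H3F3A and H3F3B by longer gene models. In plain CPM both lay above HIST1H2BK in MDA-MB-231 as well. There H3F3A averaged 141 CPM with YES1i and 160 CPM with DMSO, and H3F3B 283 and 407 CPM. HIST1H2BK averaged 32.4 CPM with YES1i and 42.2 CPM with DMSO.

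A list of 9 clustered genes known for polyadenylated transcripts (HIST1H1C, HIST1H2AC, HIST1H2BC, HIST1H2BD, HIST1H2BJ, HIST1H2BK, HIST2H2BE, HIST3H2A and HIST4H4) made up 84.7% of the members' summed CPM in MDA-MB-231 with YES1i and 77.1% with DMSO. In SUM159 it made up 72.4% with YES1i and 56.9% with DMSO. The list was chosen with earlier results of these data known and holds the leading members named above. Its shares therefore only describe the levels. The 25 long-tail models held 52.0% of the summed CPM in MDA-MB-231 with YES1i and 40.7% with DMSO, and 71.2% in SUM159 with YES1i and 58.0% with DMSO. The 35 coding-only models held 46.6% in MDA-MB-231 with YES1i and 56.0% with DMSO, and 26.1% in SUM159 with YES1i and 35.3% with DMSO.

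The total level of the 71 members overlapped between YES1i and DMSO, while the summed levels of H2A and H3 moved in opposite directions. Summed over members, the level was 141 ± 5.88 CPM with YES1i and 145 ± 5.64 CPM with DMSO in MDA-MB-231, and 70.2 ± 3.29 CPM with YES1i and 67.7 ± 3.15 CPM with DMSO in SUM159 (SD, n = 4 each). Summed H2A was 33.9 ± 1.58 CPM with YES1i and 23.0 ± 0.656 CPM with DMSO in MDA-MB-231, a ratio of 1.47, and 30.6 ± 3.21 and 21.4 ± 1.61 CPM with YES1i and with DMSO in SUM159, a ratio of 1.43. In both lines every YES1i library lay above every DMSO library. Summed H3 lay the other way in both lines without overlap, at 1.57 ± 0.444 CPM with YES1i and 3.39 ± 0.473 CPM with DMSO in MDA-MB-231, and 4.05 ± 0.761 and 6.41 ± 1.25 CPM with YES1i and with DMSO in SUM159. Summed H1 was 32.4 ± 3.05 and 37.1 ± 2.81 CPM with YES1i and with DMSO in MDA-MB-231, where the groups overlapped, and 9.81 ± 1.16 and 13.1 ± 0.837 CPM in SUM159, where they did not.

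Summed H2B overlapped between the treatments in both lines. It was 59.0 ± 3.87 CPM with YES1i and 64.6 ± 2.75 CPM with DMSO in MDA-MB-231, and 19.1 ± 1.36 CPM with YES1i and 20.9 ± 1.62 CPM with DMSO in SUM159. Summed H4 was 14.2 ± 1.14 CPM with YES1i and 16.9 ± 1.39 CPM with DMSO in MDA-MB-231, where the groups did not overlap although the highest YES1i and the lowest DMSO library both round to 15.4 CPM, and 6.64 ± 1.40 and 5.89 ± 0.878 CPM with YES1i and with DMSO in SUM159, with overlap. These sums got no test. They are dominated by the most abundant members, and the single genes below differ in direction within H2A, H2B and H3. For H2A the median log2 fold change of single members was negative, unlike the sum. It was -0.64 over the 4 tested members with counts in MDA-MB-231 and -0.78 over the 6 tested in SUM159.

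**Figure D1:**
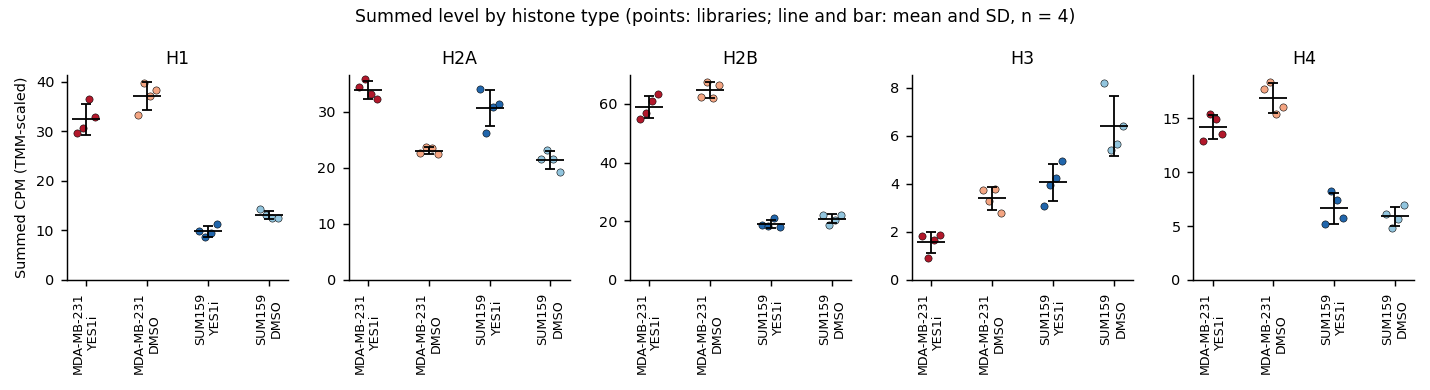
Summed level of the members of each histone type, in TMM-scaled CPM, for each library (points) with the mean and SD (line and bar, n = 4) in the 4 groups. Summed H2A lies higher and summed H3 lower with YES1i than with DMSO in both lines, with no overlap, though single H2A and H3 genes differ in direction.

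The first comparison asks which histone transcripts differed with YES1i within each line. In MDA-MB-231, 2 of the 21 tested members with counts rose, 8 fell and 11 did not pass the test, at an adjusted p under 0.05 by edgeR's quasi-likelihood test with Benjamini-Hochberg adjustment. Over all 17647 genes tested, 26.8% were called higher and 22% lower. In SUM159, 5 of the 26 tested members rose, 9 fell and 12 did not pass, while 25.1% of all genes tested were called higher and 26.5% lower. The median log2 fold change was -0.38 over the 21 members in MDA-MB-231, against 0.03 over all genes tested, and -0.45 over the 26 members in SUM159, against 0.02 over all genes tested. With upper quartile scaling the median of all genes in SUM159 was 0.14 and the share of higher calls among its calls was 63.4%, against 48.7% with TMM scaling. The YES1i and DMSO libraries did not overlap for 47.6% of those 21 members and 47.3% of all genes in MDA-MB-231, and for 57.7% of the 26 members and 43.3% of all genes in SUM159. The members tested passed a filter on low counts, and the counts describe those members only.

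Of the 2 tested linker histone genes 1 fell in each line. HIST1H1E, which encodes the H1.4 variant (ENSG00000168298, chromosome 6, 26156354 to 26157107, hg38), stood at 1.83, 0.608, 0.719 and 0.150 CPM in the YES1i libraries of MDA-MB-231, against 2.42, 3.97, 5.27 and 2.87 CPM in its DMSO libraries. SUM159 had 0.476, 0.882, 0.276 and 0.432 CPM with YES1i, against 2.72, 2.13, 2.43 and 2.11 CPM with DMSO. Every YES1i library lay below every DMSO library of its line. By edgeR with Benjamini-Hochberg adjustment its log2 fold change was -2.15 ± 0.40 (SE, adjusted p = 0.00012) in MDA-MB-231 and -2.16 ± 0.44 (adjusted p = 0.000296) in SUM159. Its gene model has 57 bases after the stop codon and no stem-loop was found in it.

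HIST1H1C, which encodes H1.2 (ENSG00000187837, chromosome 6, 26055787 to 26056428), was the most abundant H1 transcript. It stood at 27.8, 30.1, 35.7 and 32.7 CPM with YES1i and 30.8, 35.8, 31.8 and 35.4 CPM with DMSO in MDA-MB-231. Its SUM159 levels were 9.04, 7.66, 9.05 and 10.7 CPM with YES1i and 11.2, 10.4, 9.67 and 10.2 CPM with DMSO. The treatments overlapped in both lines. Its log2 fold changes of -0.08 ± 0.09 and -0.19 ± 0.10 (SE) in MDA-MB-231 and SUM159 did not pass the test (edgeR, adjusted p = 0.475 and 0.136). Without the fourth YES1i library of SUM159 the adjusted p there was 0.0381.

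Among H2A genes, HIST1H2AC and HIST3H2A were abundant and rose, while HIST2H2AC and HIST1H2AG were rarer and fell. HIST1H2AC (ENSG00000180573, chromosome 6, 26124145 to 26139116) stood at 32.2, 33.7, 30.7 and 29.8 CPM with YES1i, against 17.9, 17.8, 17.6 and 17.4 CPM with DMSO, in MDA-MB-231. SUM159 had 11.2, 10.2, 9.88 and 8.51 CPM with YES1i, against 4.72, 4.71, 4.54 and 5.40 CPM with DMSO. All YES1i libraries lay above all DMSO libraries of the same line. The log2 fold changes by edgeR were 0.84 ± 0.08 (SE, adjusted p = 1.16e-09) in MDA-MB-231 and 1.04 ± 0.10 (adjusted p = 1.01e-09) in SUM159.

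HIST3H2A (ENSG00000181218, chromosome 1, 228456979 to 228457873) was seen in SUM159 only, at 19.6, 12.6, 18.0 and 19.9 CPM with YES1i, against 8.15, 10.7, 10.6 and 7.69 CPM with DMSO. The groups did not overlap, and edgeR gave a log2 fold change of 0.92 ± 0.15 (adjusted p = 3.03e-05, SE after ±). In MDA-MB-231 its count was 0 in each of the 8 libraries.

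HIST2H2AC (ENSG00000184260, chromosome 1, 149886975 to 149887364) stood at 0.286, 0.122, 0.527 and 0.450 CPM with YES1i, against 0.726, 0.979, 1.33 and 1.46 CPM with DMSO, in MDA-MB-231. In SUM159 the levels were 0.773, 0.511, 0.221 and 0.432 CPM with YES1i, against 2.57, 2.97, 2.57 and 2.23 CPM with DMSO. It lay lower in every YES1i library than in any DMSO library of the line, with log2 fold changes of -1.64 ± 0.37 (SE, edgeR adjusted p = 0.000535) in MDA-MB-231 and -2.41 ± 0.33 (adjusted p = 3.59e-07) in SUM159.

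HIST1H2AG (ENSG00000196787, chromosome 6, 27133042 to 27135291) stood at 1.09, 1.40, 1.34 and 0.999 CPM with YES1i, against 2.18, 2.94, 2.85 and 2.37 CPM with DMSO, in MDA-MB-231. SUM159 had 1.84, 1.49, 1.93 and 1.12 CPM with YES1i, against 3.60, 2.97, 2.20 and 2.35 CPM with DMSO. It also lay lower in every YES1i library than in any DMSO library. The log2 fold changes were -1.09 ± 0.23 (SE, edgeR adjusted p = 0.000252) and -0.84 ± 0.22 (adjusted p = 0.00218) in MDA-MB-231 and SUM159. HIST1H2AG has a long-tail model of 2250 bases with a stem-loop, as HIST1H2AC does, yet the genes moved in opposite directions. HIST1H2AE, seen in SUM159, and HIST1H2AI did not pass the test (edgeR, adjusted p = 0.146 for HIST1H2AE in SUM159, and 0.806 and 0.0576 for HIST1H2AI in MDA-MB-231 and SUM159).

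**Figure D2:**
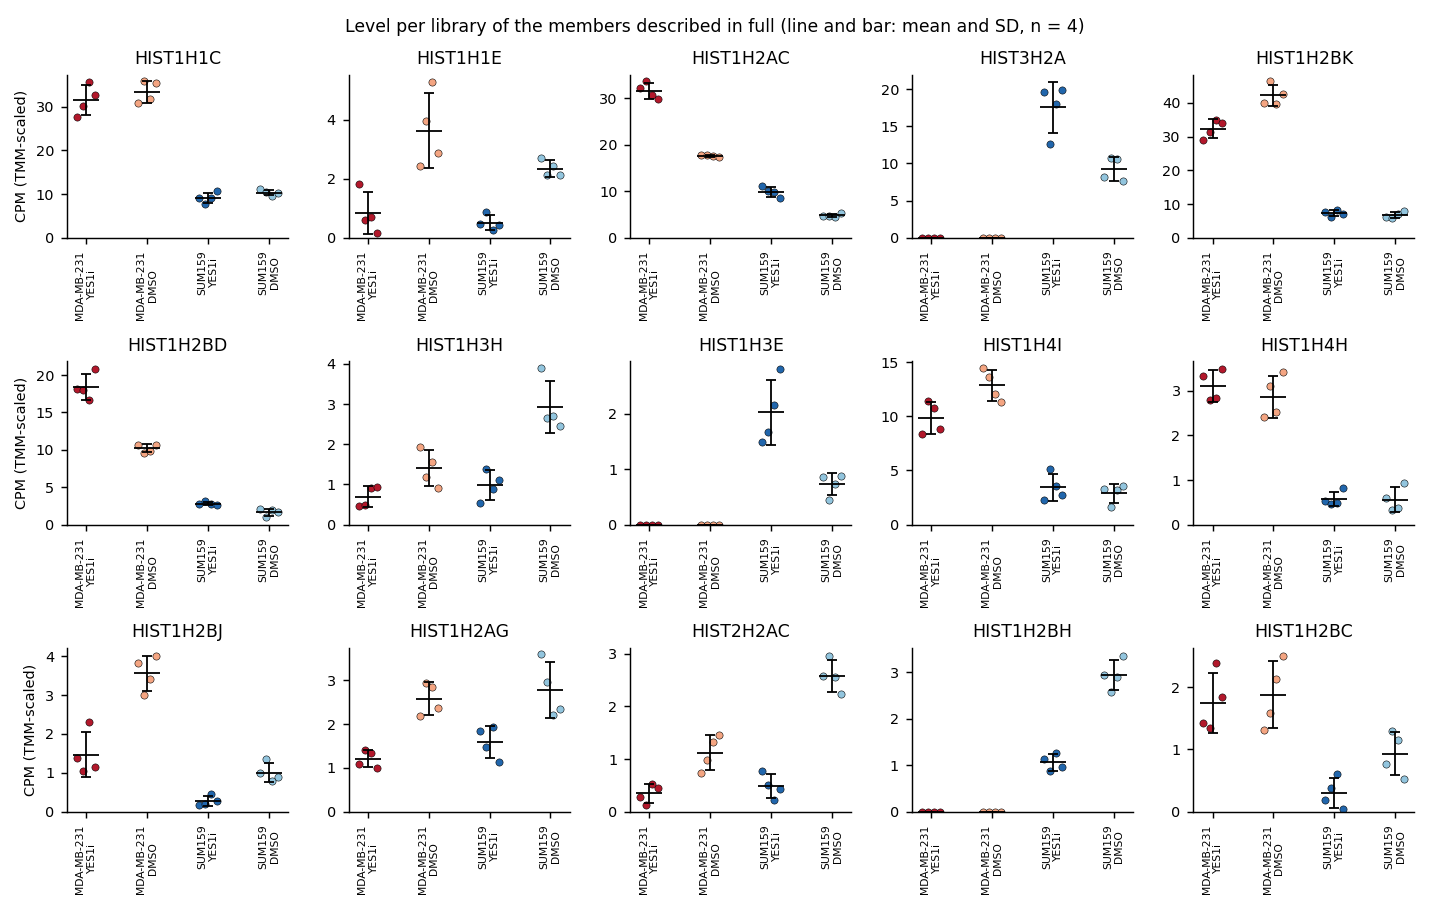
Level in TMM-scaled CPM of 15 members in each library (points) with the mean and SD (line and bar, n = 4) in the 4 groups. HIST1H2AC and HIST1H2BD lie higher and HIST1H1E, HIST2H2AC and HIST1H2BJ lower with YES1i in both lines, and HIST3H2A, HIST1H3E and HIST1H2BH are at 0 in MDA-MB-231.

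H2B genes moved in both directions as well. HIST1H2BD (ENSG00000158373, chromosome 6, 26158146 to 26171349) stood at 18.1, 18.1, 16.6 and 20.8 CPM with YES1i, against 10.6, 9.63, 9.83 and 10.7 CPM with DMSO, in MDA-MB-231. Its SUM159 levels were 2.73, 3.11, 2.82 and 2.59 CPM with YES1i, against 2.09, 1.03, 1.92 and 1.70 CPM with DMSO. It was higher in every YES1i library than in any DMSO library of its line. The log2 fold changes were 0.85 ± 0.11 (SE, edgeR adjusted p = 3.46e-07) in MDA-MB-231 and 0.68 ± 0.17 (adjusted p = 0.00128) in SUM159.

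HIST1H2BJ (ENSG00000124635, chromosome 6, 27125897 to 27132750) stood at 1.37, 1.03, 2.30 and 1.15 CPM with YES1i, against 3.82, 2.99, 3.42 and 4.01 CPM with DMSO, in MDA-MB-231. In SUM159 the levels were 0.178, 0.186, 0.442 and 0.259 CPM with YES1i, against 1.00, 1.35, 0.779 and 0.880 CPM with DMSO. The groups did not overlap in either line, and the log2 fold changes were -1.26 ± 0.24 (SE, edgeR adjusted p = 7.79e-05) and -1.88 ± 0.37 (adjusted p = 9.03e-05) in MDA-MB-231 and SUM159.

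HIST1H2BK (ENSG00000197903, chromosome 6, 27146418 to 27146798), the member with the most counts (7071 over all libraries), stood at 29.0, 31.5, 35.0 and 34.1 CPM with YES1i, against 40.1, 46.4, 39.8 and 42.7 CPM with DMSO, in MDA-MB-231. SUM159 had 7.55, 6.17, 8.23 and 7.13 CPM with YES1i and 6.32, 6.00, 7.10 and 7.92 CPM with DMSO. The groups were apart in MDA-MB-231, and it fell there by 0.38 on the log2 scale (SE 0.08, edgeR adjusted p = 0.000386). They overlapped in SUM159, with a log2 fold change of 0.09 ± 0.11 (SE, adjusted p = 0.522).

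HIST1H2BC (ENSG00000180596, chromosome 6, 26114873 to 26123926) stood at 1.43, 1.34, 2.40 and 1.85 CPM with YES1i and 1.31, 1.58, 2.14 and 2.50 CPM with DMSO in MDA-MB-231. Its SUM159 levels were 0.178, 0.371, 0.607 and 0.0432 CPM with YES1i, against 0.772, 1.29, 1.15 and 0.528 CPM with DMSO. The groups overlapped in both lines, by 1 library on each side in SUM159. It fell in SUM159 (log2 fold change -1.64 ± 0.45, SE, edgeR adjusted p = 0.00312) and did not pass in MDA-MB-231 (-0.09 ± 0.32, adjusted p = 0.847). HIST1H2BH (ENSG00000275713, chromosome 6, 26251651 to 26253710), at 0 in MDA-MB-231, stood at 1.13, 0.882, 1.27 and 0.951 CPM with YES1i, against 2.94, 2.58, 2.89 and 3.34 CPM with DMSO, in SUM159. Those groups did not overlap, and it fell by 1.48 on the log2 scale (SE 0.27, edgeR adjusted p = 6.51e-05).

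The remaining tested H2B genes had lower levels. HIST1H2BO averaged 0.266 ± 0.131 CPM with YES1i and 1.07 ± 0.266 CPM with DMSO in MDA-MB-231 (SD, n = 4 each), and fell by 1.98 on the log2 scale (edgeR, adjusted p = 0.000389), while its log2 fold change of -1.08 ± 0.53 (SE) in SUM159 did not pass (adjusted p = 0.0883). HIST1H2BN averaged 3.17 ± 0.132 CPM with YES1i and 2.14 ± 0.198 CPM with DMSO in SUM159 and rose there (log2 fold change 0.56 ± 0.19, SE, edgeR adjusted p = 0.0126). It did not pass in MDA-MB-231, with -0.16 ± 0.21 on the log2 scale (SE, adjusted p = 0.58). HIST2H2BF averaged 0.258 ± 0.0708 CPM with YES1i and 0.614 ± 0.161 CPM with DMSO in SUM159 and fell there (log2 fold change -1.26 ± 0.40, SE, edgeR adjusted p = 0.0101). Its log2 fold change of -0.79 ± 0.35 (SE) in MDA-MB-231 did not pass (edgeR, adjusted p = 0.0666). HIST2H2BE, HIST1H2BE and HIST3H2BB did not pass the test in either line, and HIST1H2BE overlaps an antisense gene, AL353759.1, whose reads cannot be told from its own without strand.

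Among H3 genes, HIST1H3H (ENSG00000278828, chromosome 6, 27810064 to 27811300) stood at 0.458, 0.486, 0.911 and 0.949 CPM with YES1i, against 1.94, 1.20, 1.57 and 0.911 CPM with DMSO, in MDA-MB-231. In SUM159 the levels were 0.535, 1.39, 0.883 and 1.12 CPM with YES1i, against 3.89, 2.64, 2.70 and 2.46 CPM with DMSO. The treatments overlapped in MDA-MB-231, through 1 DMSO library, and not in SUM159. It fell in both lines, with log2 fold changes of -0.96 ± 0.32 (SE, edgeR adjusted p = 0.0141) and -1.56 ± 0.28 (adjusted p = 2.75e-05) in MDA-MB-231 and SUM159. Without the first DMSO library of MDA-MB-231 its adjusted p there was 0.0715, and without the first YES1i library 0.0542. HIST1H3B averaged 0.185 ± 0.152 CPM with YES1i and 0.677 ± 0.216 CPM with DMSO in MDA-MB-231, and 0.246 ± 0.205 CPM with YES1i and 1.28 ± 0.314 CPM with DMSO in SUM159 (SD, n = 4 each). It fell by 1.82 and 2.39 on the log2 scale in MDA-MB-231 and SUM159 (edgeR, adjusted p = 0.00459 and 6.14e-05).

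HIST1H3E (ENSG00000274750, chromosome 6, 26224199 to 26227473) was the H3 gene that rose. SUM159 had 1.49, 1.67, 2.15 and 2.81 CPM with YES1i, against 0.858, 0.451, 0.733 and 0.880 CPM with DMSO, and it was at 0 in MDA-MB-231. Every YES1i library of SUM159 lay above every DMSO library, and the log2 fold change by edgeR was 1.45 ± 0.33 (SE, adjusted p = 0.000734). HIST1H3C did not pass the test in either line (adjusted p = 0.0672 in MDA-MB-231 and 0.109 in SUM159).

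The 3 tested H4 genes did not pass the test in either line. HIST1H4I (ENSG00000276180, chromosome 6, 27138588 to 27139881) stood at 8.36, 11.4, 10.7 and 8.84 CPM with YES1i and 14.4, 13.7, 12.0 and 11.3 CPM with DMSO in MDA-MB-231. Its SUM159 levels were 2.32, 5.15, 3.59 and 2.72 CPM with YES1i and 3.29, 1.61, 3.16 and 3.58 CPM with DMSO. The treatments overlapped in both lines, by 1 library in MDA-MB-231. Its log2 fold changes were -0.39 ± 0.18 (SE, edgeR adjusted p = 0.0753) and 0.22 ± 0.22 (adjusted p = 0.425) in MDA-MB-231 and SUM159, and limma-voom gave an adjusted p of 0.0308 in MDA-MB-231. There edgeR gave an adjusted p of 0.00126 in a fit of that line alone and 0.0059 with no low-count filter. It gave 0.0361 without the second DMSO library and 0.0209 without the second YES1i library of SUM159. HIST1H4H (ENSG00000158406, chromosome 6, 26277609 to 26285638) stood at 3.32, 2.80, 2.83 and 3.50 CPM with YES1i and 2.42, 3.10, 2.52 and 3.42 CPM with DMSO in MDA-MB-231. In SUM159 the levels were 0.535, 0.464, 0.497 and 0.821 CPM with YES1i and 0.600, 0.322, 0.367 and 0.939 CPM with DMSO. These ranges overlapped, and the log2 fold changes were 0.12 ± 0.22 and 0.07 ± 0.33 (SE, edgeR adjusted p = 0.691 and 0.883). HIST4H4 differed by 0.31 ± 0.40 and 0.45 ± 0.32 on the log2 scale (SE, adjusted p = 0.564 and 0.255). The 12 H4 genes that were not tested had 124 counts in MDA-MB-231 and 269 in SUM159, and HIST1H4K led them with 27 and 75.

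By gene model, 17 of the 26 tested members have long tails, and the members that rose are among them. In MDA-MB-231, 2 of the 13 long-tail members with counts rose and 3 fell, and in SUM159 5 of 17 rose and 6 fell, while 26.8% and 25.1% of all genes tested were called higher in MDA-MB-231 and SUM159. The long-tail members' median log2 fold change was -0.16 over those 13 in MDA-MB-231 and 0.22 over those 17 in SUM159. The 17 include 4 members at 0 in MDA-MB-231, so the medians are over unlike sets. Of the 6 tested coding-only members, 4 fell in MDA-MB-231 (median -1.36) and 2 fell in SUM159 (median -1.12), beside 22% and 26.5% of all genes called lower. Of the 3 tested short-tail members, 1 (HIST1H1E) fell in each line. Of the list of 9 with known polyadenylated transcripts, 2 rose and 2 fell in MDA-MB-231 and 3 rose and 2 fell in SUM159. These counts describe the members that passed the low-count filter, and a coding-only model can count fewer bases of a transcript than a long-tail one.

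**Figure D3:**
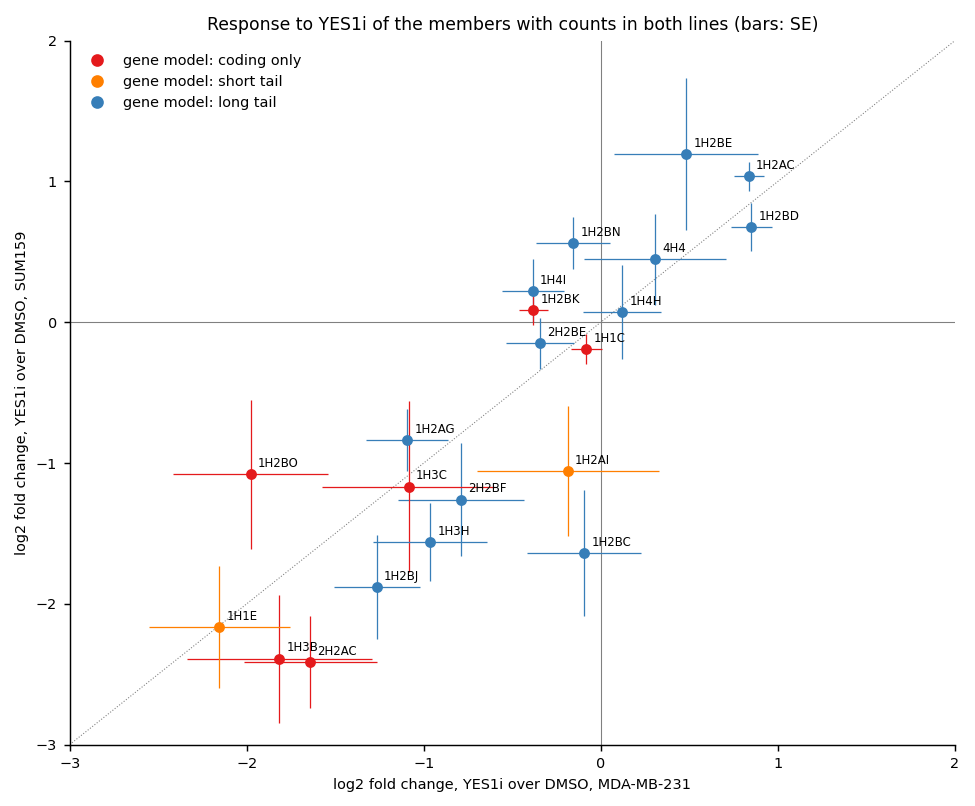
Log2 fold change (YES1i over DMSO) in MDA-MB-231 (x axis) and in SUM159 (y axis) of the 21 tested members with counts in both lines, with SE bars and colours for the gene model. HIST1H2AC and HIST1H2BD lie at the upper right, HIST1H1E, HIST1H3B and HIST2H2AC at the lower left, and the dotted line marks equal change.

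H2A and H2B genes often lie head to head and share the sequence between their starts, which makes them a natural pair to compare. There were 12 such pairs among the members with start-to-start gaps of 218 to 356 bases, 11 of them an H2A with an H2B gene, and both genes were tested in 4. Across the 218 bases between HIST1H2BC and HIST1H2AC, whose sequence is part of the HIST1H2AC region printed above, HIST1H2AC rose in both lines while HIST1H2BC fell in SUM159 and did not pass in MDA-MB-231. Mean CPM of HIST1H2AC was 31.6 with YES1i and 17.7 with DMSO in MDA-MB-231, against 1.75 and 1.88 for HIST1H2BC. Across 322 bases, HIST2H2AC fell in both lines, while HIST2H2BE differed by -0.34 ± 0.19 and -0.15 ± 0.18 on the log2 scale (SE, edgeR adjusted p = 0.145 and 0.508 in MDA-MB-231 and SUM159). In the pair 291 bases apart, HIST1H2BJ and HIST1H2AG fell in both lines. In the pair 233 bases apart, HIST3H2A rose in SUM159 and HIST3H2BB averaged 0.634 CPM with YES1i and 0.438 CPM with DMSO there (edgeR, adjusted p = 0.337), and both were at 0 in MDA-MB-231.

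The second comparison asks whether the lines responded differently. The difference in log2 fold change, MDA-MB-231 minus SUM159, passed the test in each direction for 1 of the 21 tested members with counts in both lines. The other 5 tested members were at 0 in MDA-MB-231 and gave no usable difference. The positive count was 0 with upper quartile scaling and 2 with limma-voom, and the negative count was 2 with RLE or upper quartile scaling, DESeq2, limma-voom and other low-count filters. By edgeR with TMM scaling, 19.1% of all genes tested were called with a positive and 12.1% with a negative difference. With upper quartile scaling 43.9% of such calls over all genes were positive, against 61.2% with TMM scaling. HIST1H2BC had a difference of 1.55 ± 0.56 (SE, edgeR adjusted p = 0.0342), which did not pass with upper quartile scaling (adjusted p = 0.0510) or in 8 of the 16 fits with 1 library left out, where the adjusted p was 0.0547 to 0.104. Those were the fits without DMSO library 1 or 2 or YES1i library 3 or 4 of MDA-MB-231, and without DMSO library 2 or 3 or YES1i library 1 or 4 of SUM159. HIST1H2BK had a difference of -0.47 ± 0.14 (SE, edgeR adjusted p = 0.0098), and it passed in all 16 such fits. For HIST1H2AC the difference was -0.20 ± 0.13 (adjusted p = 0.267) and for HIST1H2BD 0.17 ± 0.21 (SE, edgeR adjusted p = 0.575). For HIST2H2AC it was 0.77 ± 0.53 (edgeR adjusted p = 0.288), an error wide enough to leave room for unequal responses.

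The third comparison sets MDA-MB-231 against SUM159 with DMSO alone. Of the 21 tested members with counts in MDA-MB-231, 11 were higher there and 4 lower, while 37.8% of all genes tested were called higher and 38.7% lower. The other 5 tested members had 0 counts in MDA-MB-231 and passed the low-count filter through SUM159 alone, so that their lower calls follow from the filter. HIST1H2BK was higher in MDA-MB-231 by 2.63 ± 0.10 on the log2 scale (SE, edgeR adjusted p = 2.37e-20), HIST1H2BD by 2.53 ± 0.15 (adjusted p = 1.18e-15) and HIST1H4H by 2.35 ± 0.27 (adjusted p = 5.31e-09). HIST1H4I, HIST1H2AC and HIST1H1C were also higher there, by 2.11, 1.87 and 1.68. HIST2H2AC had a log2 difference of -1.19 ± 0.29 (SE, edgeR adjusted p = 0.000457) and HIST1H3H of -1.08 ± 0.27 (adjusted p = 0.000588), so both were lower in MDA-MB-231. HIST1H2AG, at 2.58 ± 0.369 CPM in MDA-MB-231 and 2.78 ± 0.642 CPM in SUM159 with DMSO (SD, n = 4 each), did not pass (adjusted p = 0.583).

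Counts of 0 in MDA-MB-231 fell on neighbouring genes. In chromosome order, 15 consecutive members from HIST1H4D to HIST1H2BI (chromosome 6, 26188765 to 26273356) were at 0 in every MDA-MB-231 library, and 12 of the 15 had counts in SUM159, 989 in total. This stretch was singled out after its values were seen. The 6 other annotated genes inside it had 1 count in MDA-MB-231 and 62 in SUM159. Among those 6, AL031777.3 had 0 counts in MDA-MB-231 and 34 in SUM159. It overlaps exons of HIST1H3D and HIST1H2AD, which were at 0 in both lines. How reads there were counted is not given, so the values of 0 for HIST1H3D and HIST1H2AD are uncertain. The members on either side of the stretch were present in MDA-MB-231: HIST1H2BE had 84 counts and HIST1H4H had 468. The deposited counts say nothing of the DNA there, which was not analysed here.

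A second such pair lies on chromosome 1. HIST3H2A and HIST3H2BB (228456979 to 228460470) had 0 counts in MDA-MB-231 and 2294 in SUM159, while the nearest protein-coding genes on either side, HIST3H3 and RNF187, had 12 and 14315 counts in MDA-MB-231. Nearer to the pair lie rows that were also low in both lines: the pseudogenes RPL23AP15 (2 counts in MDA-MB-231 and 0 in SUM159) and HIST3H2BA (0 and 1 count) and a microRNA gene (0 in both). Against the floor of 3 counts over a group, HIST3H2A was at least 437-fold lower in MDA-MB-231 than in SUM159 with YES1i and at least 254-fold lower with DMSO. For HIST1H2BH the bounds were at least 26.4-fold lower with YES1i and at least 80.4-fold lower with DMSO, and for HIST1H3E at least 50.6-fold and 20.0-fold lower. Of the 33 members with 30 or more counts in SUM159, 9 (27.3%) were at 0 in MDA-MB-231, against 2.79% of the 18967 genes with that many counts. In the other direction, 0 of the 23 members with 30 or more counts in MDA-MB-231 were at 0 in SUM159, against 1.57% of 18210 genes. Neighbouring members are not independent points in such a count. The 9 members all lie in this pair or in the stretch from HIST1H4D to HIST1H2BI, which were picked out after their values were seen. They entered the count through SUM159, where they are high, and the shares were not matched for level. No enrichment can therefore be read from these shares.

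**Figure D4:**
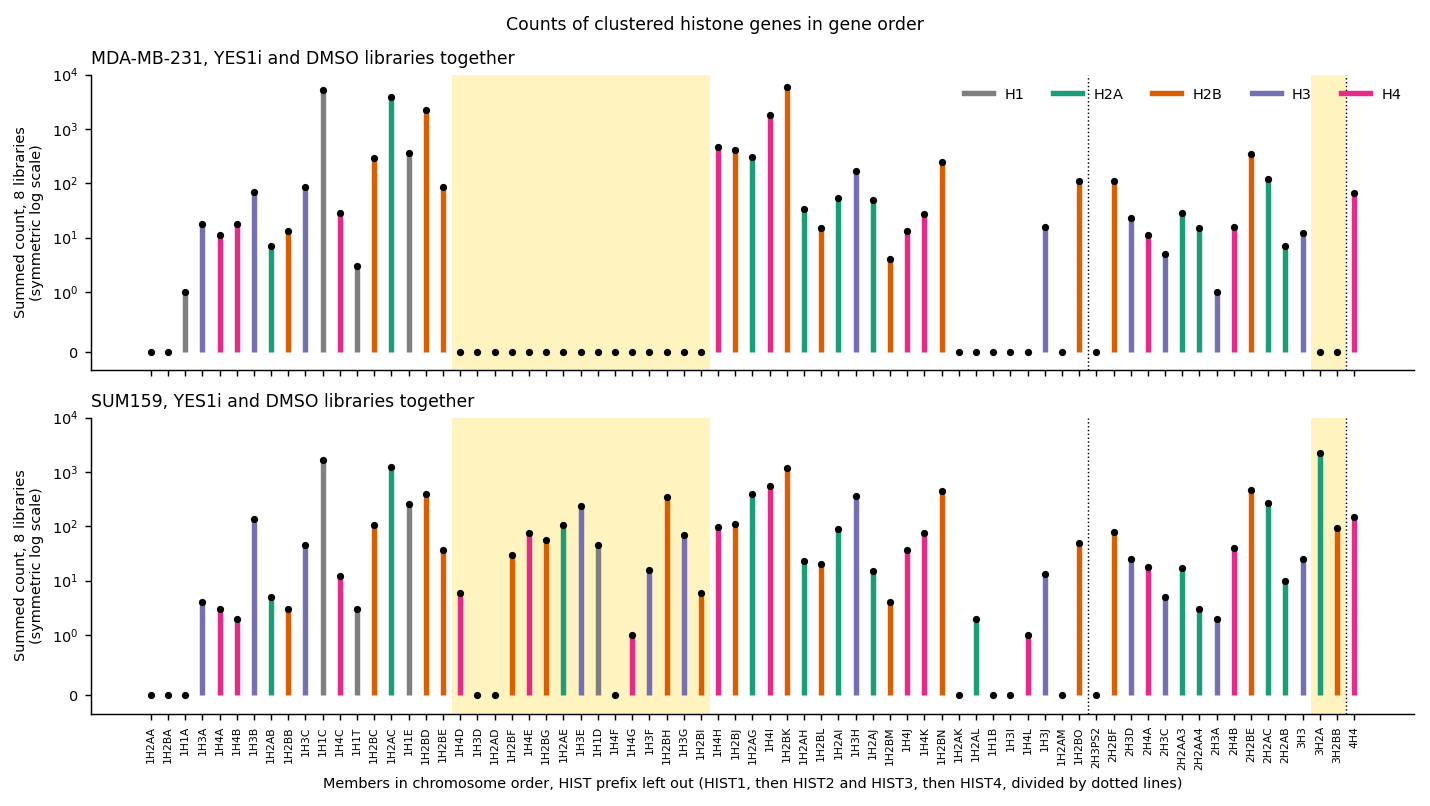
Summed counts of each member over the 8 libraries of a line, on a symmetric log axis, in chromosome order and coloured by histone type, for MDA-MB-231 (top) and SUM159 (bottom). The shaded stretches, HIST1H4D to HIST1H2BI and HIST3H2A to HIST3H2BB, are at 0 in MDA-MB-231 while most of their members have counts in SUM159.

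Genes that act with histones are given beside the members for context, from lists of known function. The counts of calls in this and the next 3 paragraphs stand beside the shares over all genes tested. Those were 26.8% higher and 22% lower in MDA-MB-231, and 25.1% higher and 26.5% lower in SUM159. All 28 genes of DNA replication fell in both lines, with median log2 fold changes of -1.17 in MDA-MB-231 and -1.35 in SUM159. Their summed level was 1375 to 1560 CPM with YES1i and 3359 to 3412 CPM with DMSO in MDA-MB-231, and 1024 to 1125 CPM with YES1i and 2699 to 2819 CPM with DMSO in SUM159. RRM2, which belongs to ribonucleotide reductase, averaged 30.6 ± 2.11 CPM with YES1i and 117 ± 2.23 CPM with DMSO in MDA-MB-231, and 32.3 ± 5.81 CPM with YES1i and 125 ± 12.0 CPM with DMSO in SUM159 (SD, n = 4 each). PCNA, the sliding clamp of DNA polymerase, fell by 1.02 and 1.31 on the log2 scale in MDA-MB-231 and SUM159 (edgeR, adjusted p = 4.46e-14 and 5.15e-16). HIST1H1E, HIST2H2AC and HIST1H3B thus moved the way these genes did, and HIST1H2AC and HIST1H2BD the opposite way. Whether the replication genes have a part in the histone values was not tested.

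Of 22 genes for transcription, 3' end processing and decay of histone mRNA, 16 fell and 3 rose in MDA-MB-231 and 17 fell and 3 rose in SUM159, with medians of -0.35 and -0.49. SLBP, which binds the stem-loop, averaged 70.6 ± 3.64 CPM with YES1i and 104 ± 2.91 CPM with DMSO in MDA-MB-231, and 53.5 ± 2.91 CPM with YES1i and 91.0 ± 10.4 CPM with DMSO in SUM159 (SD, n = 4 each). It fell by 0.56 and 0.77 on the log2 scale in MDA-MB-231 and SUM159 (edgeR, adjusted p = 2.14e-08 and 7.41e-11). NPAT, the cyclin E target that activates histone genes, fell by 0.33 and 0.43 (edgeR, adjusted p = 0.00637 and 0.00209), and CASP8AP2, which works with it, fell by 0.37 and 0.63 (adjusted p = 0.0221 and 0.000296). CCNE2, cyclin E2, had the largest change of the list at 5 CPM or more, and fell by 1.33 and 1.48 (edgeR, adjusted p = 1.66e-10 and 2.24e-10).

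Most replacement and variant histones are made outside S phase as well and have polyadenylated mRNAs. In MDA-MB-231, 9 of the 10 tested fell and 1, the H2A gene H2AFJ, rose by 0.28 on the log2 scale (edgeR, adjusted p = 0.0045), with a median log2 fold change of -0.40 over the list, and in SUM159 all 10 fell (median -0.62), H2AFJ by 0.42. H2AFX, the variant phosphorylated at DNA breaks, fell by 1.51 in MDA-MB-231 and 1.31 in SUM159, and H2AFZ, a variant found at promoters, by 0.89 and 0.91 (edgeR, adjusted p at most 3.8e-12 for these 4 values). H3F3A fell by 0.17 and 0.34 (edgeR, adjusted p = 0.00537 and 1.7e-06), and H3F3B by 0.52 and 0.50 (adjusted p = 1.68e-07 and 3.15e-07). The replacement linker histone H1F0 fell by 0.17 and 0.67 (edgeR, adjusted p = 0.00661 and 1.44e-11) and H1FX by 0.26 and 0.58 (adjusted p = 0.0118 and 2.68e-06). CENPA, the centromeric H3 variant, fell by 1.54 and 0.90 (edgeR, adjusted p = 2.67e-15 and 1.48e-10).

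Of 20 histone chaperone genes, 14 fell in MDA-MB-231 (median -0.40), and 16 fell and 2 rose in SUM159 (median -0.49). HJURP, the chaperone of CENPA, fell by 1.46 in MDA-MB-231 and ASF1B, a carrier of newly made H3 and H4, fell by 1.71 in SUM159 (edgeR, adjusted p = 5.64e-16 and 3.81e-17). Over the 21 members with counts in both lines the median was -0.38 in MDA-MB-231 and -0.84 in SUM159, with single genes spread from -2.15 to 0.85 and from -2.41 to 1.20. The 1.20 belongs to HIST1H2BE, which overlaps an antisense gene and did not pass in SUM159 (edgeR, adjusted p = 0.0648). HIST1H2AC came next there at 1.04. The changes of the replication genes ran from -1.93 to -0.96 in MDA-MB-231 and from -1.95 to -0.71 in SUM159.

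**Figure D5:**
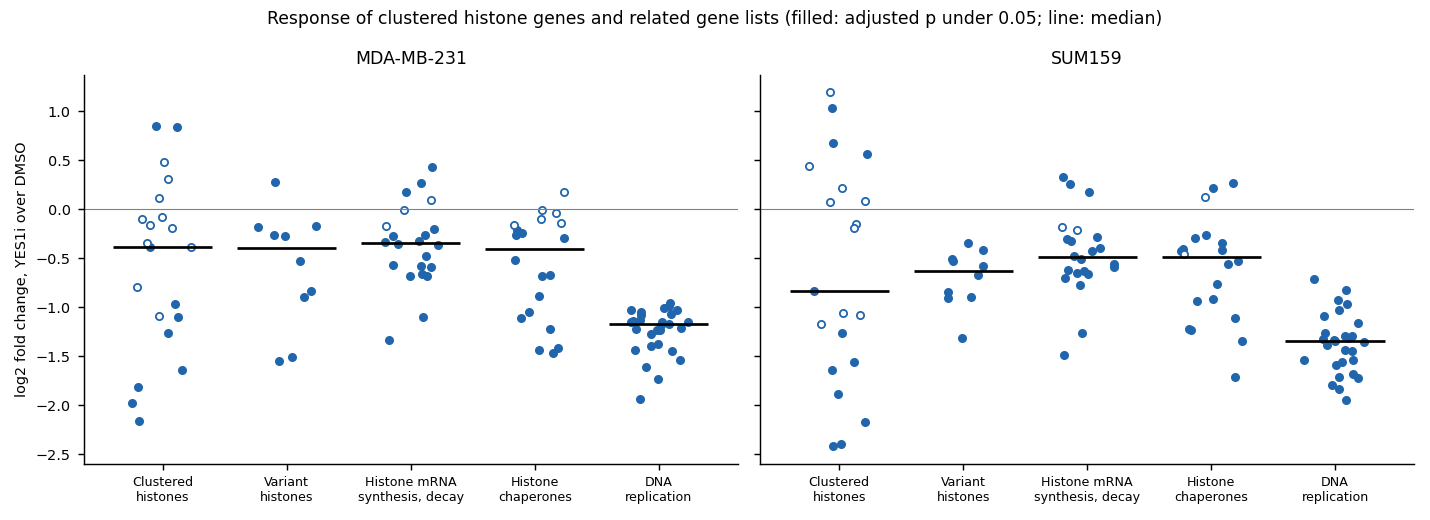
Log2 fold change (YES1i over DMSO) of the 21 clustered histone genes with counts in both lines and of 4 lists of related genes, in MDA-MB-231 (left) and SUM159 (right), with filled points at an adjusted p under 0.05 and a line at the median. The clustered histones spread to both sides of 0, and all replication genes lie below it.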

How the data were processed

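The deposited file is a table of unnormalized read counts for 58735 genes in 16 libraries, made from RNA bound to poly-T beads per the labels' protocols. The build hg38, the aligner HISAT2 2.0.5 and the counter featureCounts 1.5.0-p3 are named in the submitters' processing notes. Settings for strand, overlapping genes and reads that match several copies were not given in the sources. All 58735 genes match GENCODE 29 in ID, name and position, and its transcripts gave the tails and stem-loops. Gene lengths are the deposited ones.

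All genes entered one edgeR 4.0.16 fit (R 4.3.3 with limma 3.58.1) of the 16 libraries and 4 group means, after filterByExpr and TMM scaling. The robust quasi-likelihood F test was used, with Benjamini-Hochberg adjustment over the 17647 genes left and a call at 0.05. CPM values carry the TMM factors, and SE values of log2 fold changes come from the F statistic. The steps were tested on simulated counts. Library totals and the level that a count of 0 allows are given with the results. No replicate pair agreed within sampling noise (chi-square over degrees of freedom 2.30 to 21.7).

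The members and the gene lists were chosen with earlier results of these data known. Values per library are given for the 2 members of each type with the highest mean CPM, for the called members with the largest changes in a line at 1 CPM or more (up to 4 each way), and for those with the largest differences in response or between lines (up to 3 each way). Other named genes are the most changed called gene of a list at 5 CPM or more, and SLBP, NPAT, CASP8AP2, H3F3A, H3F3B, H2AFZ, H2AFX, H1F0, H1FX, CENPA, RRM2 and PCNA. Alternatives were RLE, upper quartile and no scaling, DESeq2 1.42.0, limma-voom, other filters, stricter thresholds, a replicate block, a fit per line, sums without members that overlap another gene, and each library left out in turn.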

Additional observations from a re-analysis of the deposited data

Results flagged for a closer look

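HIST1H2BK differed in response between the lines in the direct test of that difference, with a log2 difference of -0.47 (MDA-MB-231 minus SUM159). Within the lines it fell in MDA-MB-231 and did not pass the test in SUM159. HIST1H2BC differed in the opposite direction, by 1.55. Within the lines HIST1H2BC fell in SUM159 and did not pass in MDA-MB-231. HIST1H3H stood apart in 1 library of SUM159 with DMSO: replicate 1 was at 3.89 CPM and the other libraries at 2.46 to 2.70 CPM, so that the gap took 0.832 of the group's range. This was the single case among 60 member and group combinations looked at, where chance alone gives about 1 in 20.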

How the results depend on the processing

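For the 15 members described in full, 51 log2 differences were checked under the alternatives. This gave 1302 combinations of a difference and a setting, many of them from the same fit. Of these, 1270 kept their direction and their side of the threshold and 0 reversed. Another 21 lost the call (10 of them under a stricter threshold), and 11 gained one. Requiring at least a 2-fold change left 0 higher members in MDA-MB-231, 2 higher members in SUM159 and 0 members with a negative difference in response. Members with a positive difference in response numbered 0 with upper quartile scaling or an adjusted p under 0.01, 2 with limma-voom, and 0 to 1 with each library left out. Members with a negative one numbered 2 with RLE or upper quartile scaling, DESeq2, limma-voom, no filter or a mean count of 10, and 1 to 2 with each library left out. Members lower in MDA-MB-231 than in SUM159 with DMSO numbered 9 with edgeR, 5 of them at 0 in MDA-MB-231, and 14 with DESeq2 and 15 with no filter, which test more members. With library totals alone, summed H2A in MDA-MB-231 with DMSO was 24.0 CPM and all members 151 CPM, and with upper quartile scaling all members in SUM159 with YES1i came to 74.5 CPM. For these last values the cause was not tested. Replicate numbers did not pair the libraries (correlations of -0.20 to 0.01, own number best for 0 of 8), and a replicate block gave 2 higher and 8 lower members in MDA-MB-231 and 5 higher and 9 lower in SUM159. Depth limits what can be said of the 45 members not tested.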

Other observations

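HIST2H2BC and HIST2H2BD, transcribed pseudogenes of the HIST2 cluster on chromosome 1 that lie outside the protein-coding members, had 1562 and 436 counts over the 16 libraries, against 797 for HIST2H2BE. HIST2H2BA had 219 and HIST2H3DP1 had 144. The other 15 pseudogene rows had at most 14 counts each. Values of these rows and of similar genes are uncertain where reads match several copies.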
